A study of Mus musculus with 6 samples.

Results

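The collagen chain genes are the protein-coding mouse genes that encode the alpha chains of the collagens. They were taken by symbol (Col, a type number, a, and a chain number) from the GENCODE M21 annotation of GRCm38, which gave 44 of the 21790 protein-coding genes with a target in the files. By structure, 11 encode fibrillar chains, 9 encode fibril-associated chains with interrupted helices (FACIT), 8 encode basement membrane chains and 16 fall in none of these classes. Every gene of the family was kept, whatever its level.

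RNA was sequenced in 6 libraries of cultured mouse cells, all labelled Mdm2 fl/fl and p53-/-, so that by label the cells of both arms lacked p53. The labels name adult fibroblasts from ear punches, a T-cell lymphoma and a sarcoma, the tumours having arisen in mice of that genotype and been cultured briefly. Cells had received a retrovirus that carried CreERT2, a tamoxifen-activated recombinase, with GFP, or GFP alone, and which of these a library had is not labelled. For each cell type 1 library is labelled 4OHT and Mdm2 deleted (4-hydroxytamoxifen at 1 mM, as the labels give it) and 1 is labelled EtOH (ethanol vehicle, control), with 6 h of exposure for lymphoma and 48 h for sarcoma and fibroblasts. No library is labelled as 4-hydroxytamoxifen without deletion, so drug and deletion cannot be told apart. The comparison asks how collagen RNA differs between the 4OHT and EtOH libraries across the 3 labels. Nothing in the labels describes separate cultures within a label, so the p-values below measure only the spread between these libraries, which may be technical.

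The files went against the labels in 2 ways. Mdm2 RNA was not lower in the libraries labelled Mdm2 deleted: it stood at 30.5, 31.1 and 31.1 CPM there and at 28.4, 28.0 and 28.5 CPM in the EtOH libraries (log2 change 0.13 ± 0.05 SE, edgeR adjusted p = 0.0539). CPM here means estimated counts scaled to a common library total with TMM factors, and sets of 3 values follow the order fibroblast, lymphoma, sarcoma. Which part of the gene was to be deleted is not given in the labels, and reads elsewhere in the gene would not show it. Trp53 RNA, the RNA of p53, was detected in every library. It stood at 24.3, 24.3 and 28.5 CPM in the 4OHT and 26.9, 22.3 and 24.1 CPM in the EtOH libraries. Whether the p53 allele of these cells leaves such RNA was not tested. The 7 T cell markers summed to 0 counts in both libraries labelled lymphoma and to at most 3 counts in any library, whereas 8 of 9 mesenchymal markers passed 1 CPM. Libraries of an arm resembled each other whatever their cell type label: across 15920 genes the SD of the log2 difference was 0.111 to 0.165 within an arm and 0.495 to 0.519 between arms. No 2 libraries agreed within sampling noise (chi-square per degree of freedom of at least 8.07), so all were kept as separate. Groups are therefore called by their labels only, and total estimated counts lay between 26243064 and 37517726 per library.

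Collagens are the main structural proteins of the extracellular matrix. Each molecule is a trimer of alpha chains wound around each other, which requires glycine at regular steps, so that a chain reads as repeats of glycine followed by a pair of other residues. Fibrillar chains (types I, II, III, V, XI, XXIV and XXVII) have a long helix and pack into fibrils, and FACIT chains sit on the surface of those fibrils. Type IV chains form the network of basement membranes, and fibroblasts are a main source of types I, III, V and VI.

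In the annotated proteins the length of the unbroken runs set the fibrillar class apart, while the other classes overlapped. Translated from the longest protein-coding transcript of each gene in the files, the 11 fibrillar chains had longest unbroken runs of 216 to 344 glycine repeats, with the longest in Col3a1 (344 repeats in 1464 residues). Runs reached 32 to 113 repeats in FACIT chains, 30 to 66 in basement membrane chains and 23 to 87 in the others. In Col24a1 and Col27a1 the runs held 216 and 217 repeats, shorter than the 337 to 344 of the other 9 fibrillar chains. Col12a1 encodes a far larger protein, of 3065 residues, of which 7.63% lay in runs of 10 repeats or more. Among FACIT chains this share ranged from that value up to 83.8% in Col9a3.

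Promoter sequence is shown for 5 members whose RNA moved to different degrees, taken from RefSeq (GRCm38.p6) as the 150 bases before the annotated start, and for each of them no annotated GENCODE exon overlaps the window. Col3a1 and Col11a1 were the fibrillar genes that fell most, Col5a1 and Col5a3 encode chains of the same collagen type that fell by unlike amounts, and Col7a1 did not pass the test. Capitals mark 3 motifs, each searched on both strands. One is the box CCAAT, which reads ATTGG on the opposite strand. Another is the core promoter motif TATAAA, which reads TTTATA on the opposite strand. The last is GGGCGG, the letters of a common Sp1 box, which read CCGCCC on the opposite strand. The motifs share no letters with one another in these windows.
Col3a1, chr1:45311388-45311537, plus strand: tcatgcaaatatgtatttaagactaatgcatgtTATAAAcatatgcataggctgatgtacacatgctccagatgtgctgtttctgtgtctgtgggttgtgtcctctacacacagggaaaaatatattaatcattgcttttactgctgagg
Col11a1, chr3:114030390-114030539, plus strand: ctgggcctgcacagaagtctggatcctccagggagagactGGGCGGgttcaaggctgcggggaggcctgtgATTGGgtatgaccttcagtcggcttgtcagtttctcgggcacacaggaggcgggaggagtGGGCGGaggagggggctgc
Col5a1, chr2:27886275-27886424, plus strand: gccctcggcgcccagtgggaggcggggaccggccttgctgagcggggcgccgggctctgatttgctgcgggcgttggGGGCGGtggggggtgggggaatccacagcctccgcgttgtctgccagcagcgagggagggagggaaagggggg
Col5a3, chr9:20815068-20815217, minus strand: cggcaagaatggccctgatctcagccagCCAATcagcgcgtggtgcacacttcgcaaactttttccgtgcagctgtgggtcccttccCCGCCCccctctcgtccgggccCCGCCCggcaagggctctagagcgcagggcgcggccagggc
Col7a1, chr9:108953436-108953585, plus strand: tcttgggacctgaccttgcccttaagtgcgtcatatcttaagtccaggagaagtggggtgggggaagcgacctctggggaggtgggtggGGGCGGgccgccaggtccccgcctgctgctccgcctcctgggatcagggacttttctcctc

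These windows have no motif in common. Col3a1 has a TATAAA that begins 117 bases before the start, and neither of the others. The window of Col11a1 holds CCAAT 79 bases and GGGCGG 110 and 19 bases upstream. In Col5a3 the CCAAT begins 122 bases upstream, and GGGCGG lies 63 and 41 bases upstream. Col5a1 and Col7a1 each have a single GGGCGG, 73 and 61 bases upstream.

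Over the family, 35 of 44 genes had a promoter in the table. GGGCGG occurred in 19 of the 35, against 28.6% of all 32851 windows of the same length, CCAAT in 8 of 35 against 24.5%, and TATAAA in 4 of 35 against 7.57%. Among genes that fell, 9 of 15 held GGGCGG and 4 of 15 held CCAAT, and among genes that passed the filter without a call 3 of 8 held GGGCGG and 3 of 8 held CCAAT. Of the genes that rose, 3 had a window, of which 3 held GGGCGG and 0 held CCAAT. A match of letters is a description of the window and not evidence of a bound site. The table had no entry for Col1a1, Col2a1, Col4a3, Col5a2, Col9a3, Col12a1, Col14a1, Col22a1 and Col26a1.

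Of the 44 genes, 34 passed the filter on low counts and were tested with edgeR's quasi-likelihood test, with the label as a block and Benjamini-Hochberg adjustment over all 15933 genes. Collagen RNA fell in the 4OHT libraries: 18 genes were called lower and 6 higher, and 10 were not called. Over all genes tested, 24.6% were called lower and 25% higher, so the share of members called lower lay above the background and that called higher below it. In the 18 genes every 4OHT library lay below every EtOH library (27.8% of all genes did so), in the 6 every 4OHT library lay above (27.7% of all genes), and in the other 10 the arms overlapped. The median log2 change was -0.19 over the 34 genes and 0.02 over all 15933 genes.

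Calls are also given by level. Among the 19 genes that averaged 5 CPM or more, 16 fell, none rose and 3 were not called, with a median log2 change of -0.57. Of all 10857 genes at that level, 29.9% were called lower and 28.6% higher, with a median log2 change of -0.00012. All 6 genes that rose had a mean below 5 CPM, as had 2 that fell, Col4a6 and Col28a1. The 10 genes that did not pass the filter were Col4a4, Col6a5, Col6a6, Col8a2, Col9a1, Col9a2, Col10a1, Col13a1, Col19a1 and Col26a1. None of these 10 exceeded 15 counts or 0.527 CPM in any library, and none was at 0 in all libraries. Because the filter keeps a gene that is detected in 1 arm alone, counts over the 34 genes describe the genes that passed and not the family.

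**Figure D1:**
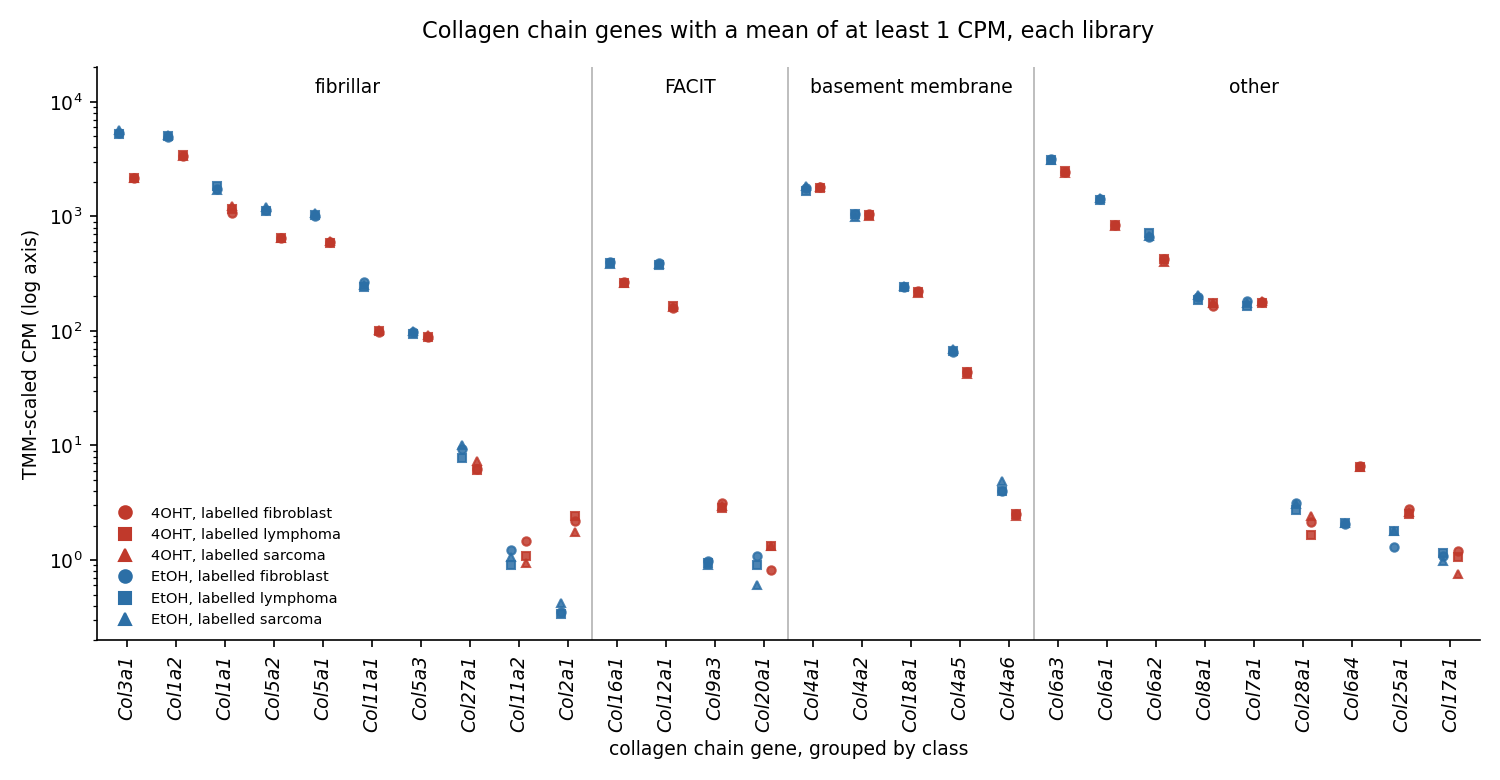
TMM-scaled CPM (log axis) of the 28 collagen chain genes that averaged 1 CPM or more in each of the 6 libraries, grouped by class and ordered by the EtOH mean; red marks the 4OHT libraries and blue the EtOH libraries, and the marker shape gives the cell type label. Libraries of an arm lie close together whatever their label, and the red points lie below the blue ones for 16 of the 19 genes above 5 CPM.

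Summed over all members, collagen RNA took 1.54% to 1.61% of the counts in the 4OHT libraries and 2.38% to 2.49% in the EtOH libraries. The summed level was 15745 ± 81.5 CPM (SD, n = 3) against 24279 ± 358 CPM, a ratio of 0.649. Each of the 3 EtOH sums was above each of the 3 4OHT sums (two-sided exact permutation test, p = 0.1, the smallest that 3 against 3 libraries can give). In bulk RNA, fewer cells of a type and less RNA per cell cannot be told apart. The 9 mesenchymal markers also summed lower in the 4OHT libraries, at 6687 to 6803 CPM against 8715 to 9017 CPM. Of the 8 that passed the filter 5 fell (Dcn, Vim, Thy1, Pdgfra and Pdgfrb), at log2 changes of -0.83 to -0.23, and none rose. Over all genes tested, 24.6% were called lower and 25% higher. The part of these markers in the result was not tested.

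The classes moved by different amounts. Fibrillar members summed to 8162 ± 77.0 CPM (SD, n = 3) in the 4OHT and 14776 ± 295 CPM in the EtOH libraries, a ratio of 0.552. FACIT members summed to 431 ± 0.365 CPM against 781 ± 17 CPM, which is also a ratio of 0.552. Members outside the named classes stood at 4053 ± 65.8 CPM against 5611 ± 47.9 CPM, a ratio of 0.722. Each of these 3 sums separated the arms fully (exact permutation p = 0.1 each, or 0.125 after Benjamini-Hochberg adjustment over the 5 sums tested). Basement membrane members did not: they summed to 3099 ± 17 CPM against 3110 ± 65.4 CPM, a ratio of 0.997 (exact permutation p = 0.9). A sum is set by its most abundant genes, so the genes are given one by one below.

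**Figure D2:**
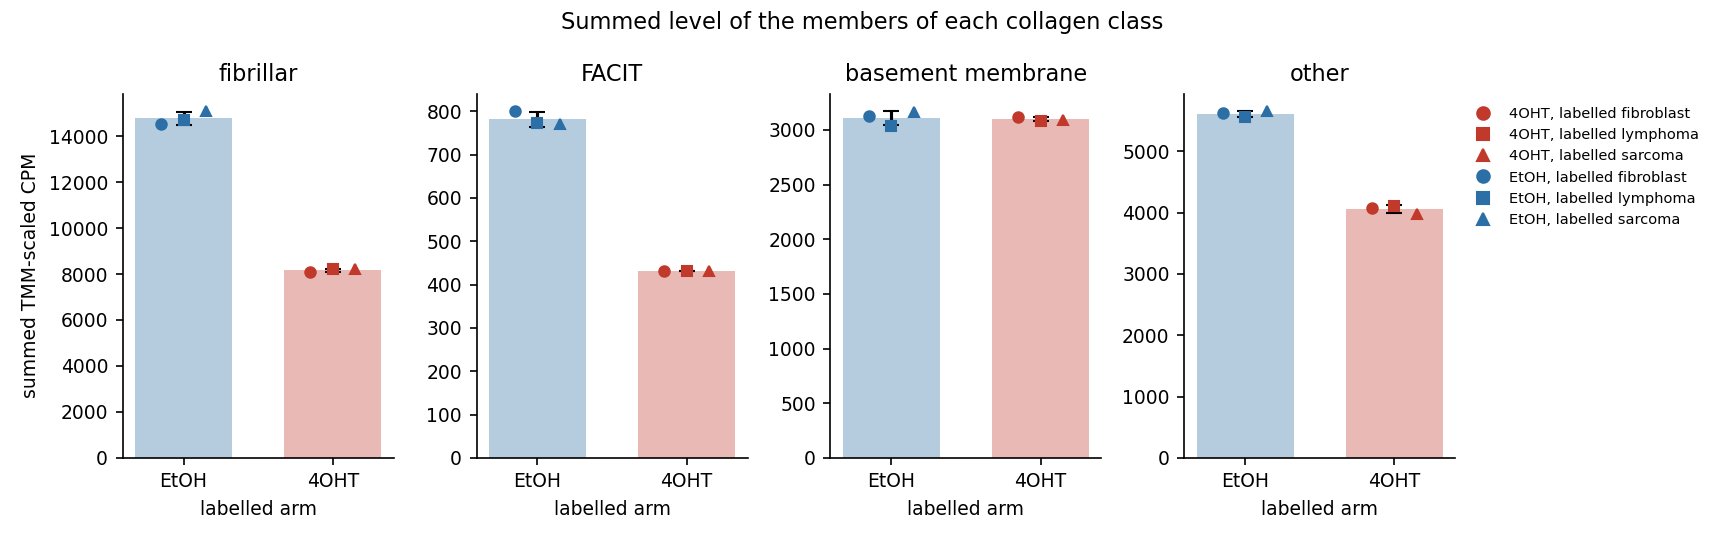
Summed TMM-scaled CPM of the members of each collagen class by labelled arm; bars are means with SD over 3 libraries, points are the libraries, each axis starts at 0, and the scale differs between panels. The arms separate for the fibrillar, FACIT and other classes, and overlap for basement membrane members at 3099 and 3110 CPM.

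The fibrillar class held the genes that fell most, Col11a1 and Col3a1, with the FACIT gene Col12a1 close behind. Of the 11 fibrillar members, all of which passed the filter, 8 fell, 1 rose and 2 were not called, and the median log2 change was -0.57. For all genes tested the shares were 24.6% lower and 25% higher, and no class was tested against them. Type I collagen is the main protein of tendon, bone and dermis and is a trimer of Col1a1 and Col1a2 products. Col1a2 (chromosome 6, 4504814 to 4541544) read 4948, 5088 and 5108 CPM in the EtOH libraries and 3390, 3458 and 3358 CPM in the 4OHT libraries. Its log2 change was -0.57 ± 0.04 (SE, edgeR adjusted p = 8.45e-07). Col1a1 (chromosome 11, 94936224 to 94953042) read 1748, 1837 and 1703 CPM against 1075, 1157 and 1228 CPM, a log2 change of -0.61 ± 0.05 (adjusted p = 2.36e-06). Both type I genes fell, with no overlap between arms.

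Type III collagen, a homotrimer of Col3a1 chains, forms the fine fibrils of skin, vessels and wounds. Col3a1 (chromosome 1, 45311538 to 45349706) read 5311, 5292 and 5648 CPM in the EtOH libraries and 2163, 2163 and 2150 CPM in the 4OHT libraries. The fall was 2.51-fold (log2 change -1.33 ± 0.05, edgeR adjusted p = 6.6e-10). The 3 4OHT values were nearly equal, and the arms differed by far more than the spread of either.

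Type V and type XI chains nucleate fibrils and limit their diameter. Col5a1 and Col5a2 encode the common type V chains, and Col5a3 a chain of narrower expression. Col5a2 fell from 1141, 1108 and 1215 CPM to 649, 643 and 650 CPM (log2 change -0.83 ± 0.05, edgeR adjusted p = 4.12e-08). Col5a1 fell from 1004, 1023 and 1068 CPM to 601, 592 and 610 CPM (-0.78 ± 0.04, adjusted p = 5.29e-08). Col5a3 moved less, from 98.5, 94.6 and 99.4 CPM to 88.3, 89.4 and 92.4 CPM. Its log2 change of -0.11 ± 0.04 passed the test narrowly (adjusted p = 0.035) and missed it without each labelled pair in turn (adjusted p = 0.0586 to 0.0894). With all 6 libraries the call was also lost in the DESeq2 Wald test (adjusted p = 0.156). The same held in limma fits of TPM (adjusted p = 0.578 with a pseudocount of 1 and 0.573 with 0.1). All 3 type V genes had lower values in every 4OHT library.

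Col11a1, the main type XI chain, which is best known from cartilage and is also made by activated fibroblasts, fell most of the fibrillar genes. It read 268, 244 and 250 CPM in the EtOH libraries and 98.0, 98.9 and 103 CPM in the 4OHT libraries, a 2.54-fold fall (log2 change -1.35 ± 0.05, edgeR adjusted p = 9.08e-10). Col11a2, the other type XI gene, was close to 1 CPM in all libraries (0.911 to 1.46 CPM) and was not called (log2 change 0.11 ± 0.21, adjusted p = 0.692).

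The other fibrillar genes were scarce. Col27a1 fell from 9.23, 7.73 and 10.1 CPM to 6.28, 6.16 and 7.33 CPM (log2 change -0.45 ± 0.09, edgeR adjusted p = 0.00108). Col24a1 had 6, 8 and 14 counts in the 4OHT and 11, 15 and 22 counts in the EtOH libraries, which overlap, and was not called (-0.54 ± 0.33, adjusted p = 0.194). Col2a1, the type II chain of cartilage, was the only fibrillar gene that rose. It had 64, 64 and 49 counts (2.17, 2.41 and 1.77 CPM) in the 4OHT and 10, 10 and 16 counts (0.351, 0.338 and 0.425 CPM) in the EtOH libraries. The log2 change was 2.47 ± 0.24 (adjusted p = 6.03e-06), the largest of the family in size, at a level near 2 CPM.

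Of the 9 FACIT genes 6 passed the filter, of which 2 fell, 2 rose and 2 were not called, at a median log2 change of 0.12. With 6 genes tested, 2 each way is near the 24.6% of all genes called lower and the 25% called higher. The 2 that fell were abundant and the 2 that rose were scarce. Col12a1 encodes type XII collagen, which decorates type I fibrils in tendon, ligament and wounds. It fell from 395, 380 and 384 CPM to 158, 164 and 162 CPM, or 2.40-fold (log2 change -1.26 ± 0.04, edgeR adjusted p = 6.65e-10). Col16a1, for type XVI collagen, fell from 403, 391 and 383 CPM to 268, 262 and 264 CPM (-0.57 ± 0.04, adjusted p = 5.31e-07). These 2 genes made up nearly all of the FACIT counts.

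Col9a3 encodes a chain of type IX collagen, which coats the type II fibrils of cartilage. It rose from 28, 28 and 34 counts (0.983, 0.945 and 0.903 CPM) to 93, 76 and 82 counts (3.15, 2.86 and 2.96 CPM), with a log2 change of 1.66 ± 0.16 (edgeR adjusted p = 7.72e-06). Its partner chains Col9a1 and Col9a2 did not pass the filter, with at most 1 and 12 counts in a library. Beside the rise of Col2a1 and Col9a3, the 6 cartilage cell markers (Acan, Comp, Matn1, Matn3, Hapln1 and Cnmd) summed to 12 to 13 counts in the 4OHT and 14 to 29 counts in the EtOH libraries. Matn1 and Hapln1 were at 0 in every library.

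Col22a1, a type XXII chain found at tissue junctions, had 18, 14 and 11 counts against 8, 4 and 10 counts. It was called higher (log2 change 1.13 ± 0.37, edgeR adjusted p = 0.0246), and leaving out the fibroblast pair (adjusted p = 0.0732) or the lymphoma pair (adjusted p = 0.13) removed the call. The call was also lost with all libraries in the DESeq2 Wald test (adjusted p = 0.246) and in the limma fits of TPM (adjusted p = 0.652 and 0.595). Col14a1 and Col20a1 were not called, at log2 changes of -0.20 ± 0.28 and 0.43 ± 0.28 (adjusted p = 0.596 and 0.234). Col20a1 shares its locus with a transcript on the same strand, BX649560.1, at 14.6 CPM against 1.01 CPM for Col20a1, so its few reads are uncertain. Without the pair labelled fibroblast Col20a1 was called higher (log2 change 0.80, adjusted p = 0.0258), and on the TPM scale its change was negative.

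Of the 8 basement membrane genes 7 passed the filter, of which 3 fell, none rose and 4 were not called, at a median log2 change of -0.11. Among all genes tested, 24.6% were called lower and 25% higher. The network of most basement membranes is built of type IV trimers of Col4a1 and Col4a2 products, and neither gene was called. Col4a1 (chromosome 8, 11198423 to 11312826) read 1774, 1679 and 1858 CPM in the EtOH and 1801, 1787 and 1822 CPM in the 4OHT libraries (log2 change 0.03 ± 0.05, edgeR adjusted p = 0.641). Col4a2 read 1044, 1043 and 981 CPM against 1050, 1032 and 1007 CPM (0.01 ± 0.04, adjusted p = 0.866). The arms overlapped for both genes, and the sign of either change, being so near 0, turned under some settings.

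A further type IV pair fell. Col4a5, whose product joins trimers of kidney, lung and smooth muscle basement membranes, went from 65.4, 67.3 and 69.1 CPM to 43.6, 44.1 and 42.4 CPM (log2 change -0.63 ± 0.04, edgeR adjusted p = 3.65e-07). Col4a6, its partner in smooth muscle, went from 3.97, 3.98 and 4.94 CPM to 2.54, 2.52 and 2.42 CPM (-0.78 ± 0.13, adjusted p = 0.000442). Both lay lower in every 4OHT library. The other pair, Col4a3 and Col4a4, was barely detected, with at most 15 counts and 1 count in a library, and Col4a3 was not called (-0.11 ± 0.39, adjusted p = 0.84).

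Col18a1 encodes the proteoglycan collagen from which endostatin is released. It moved from 241, 242 and 248 CPM to 221, 221 and 216 CPM, a small change that passed the test (log2 -0.15 ± 0.04, edgeR adjusted p = 0.00963). Col15a1, its near relative, had 14 to 16 counts in the EtOH and 15 to 21 counts in the 4OHT libraries and was not called (0.48 ± 0.28, adjusted p = 0.186). Beside this class, the 5 endothelial markers summed to 0.916 to 1.37 CPM in the 4OHT and 0.176 to 0.292 CPM in the EtOH libraries. Pecam1 rose among them, at 0.754 against 0.173 CPM, and Tie1 was at 0 in every library. Their part in the levels of the basement membrane genes was not tested.

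Of the 16 genes in none of these classes 10 passed the filter, of which 5 fell, 3 rose and 2 were not called, at a median log2 change of -0.15. The 3 of 10 that rose are near the 25% of all genes called higher, and 24.6% of all genes were called lower. Type VI collagen, which forms beaded microfibrils around cells, is assembled from Col6a1, Col6a2 and a long chain such as that of Col6a3. Col6a1 fell from 1417, 1378 and 1449 CPM to 840, 836 and 821 CPM (log2 change -0.76 ± 0.04, edgeR adjusted p = 8.17e-08). Col6a2 fell from 666, 722 and 676 CPM to 423, 424 and 403 CPM (-0.72 ± 0.04, adjusted p = 1.24e-07). Col6a3 fell by less, from 3145, 3099 and 3138 CPM to 2444, 2484 and 2386 CPM (-0.36 ± 0.04, adjusted p = 4e-05). Every 4OHT library was below every EtOH library for each of these 3 genes. The Col6a3 call was lost in limma fits of TPM (adjusted p = 0.199 with a pseudocount of 1 and 0.201 with 0.1).

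Col6a4 encodes an alternative to the Col6a3 chain and moved the other way. It rose from 2.07, 2.09 and 2.12 CPM to 6.62, 6.46 and 6.50 CPM, or 3.11-fold (log2 change 1.64 ± 0.11, edgeR adjusted p = 3.82e-07). These values rest on 59 to 80 counts in an EtOH library and 172 to 195 in a 4OHT library. Col6a5 and Col6a6, the other alternatives, which lie next to Col6a4 on chromosome 9, reached at most 5 and 8 counts in a library.

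Col7a1, the anchoring fibril chain that ties epidermis to dermis, was not called. It read 183, 165 and 177 CPM in the EtOH and 180, 176 and 182 CPM in the 4OHT libraries (log2 change 0.04 ± 0.04, edgeR adjusted p = 0.527). Col8a1, a network-forming chain of vessels and cornea, fell slightly from 198, 188 and 207 CPM to 167, 177 and 176 CPM (-0.19 ± 0.05, adjusted p = 0.00501). Its call was also lost in the limma fits of TPM (adjusted p = 0.276 and 0.275), as were those of Col18a1 (0.243 and 0.246) and Col27a1 (0.177 and 0.212).

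The remaining genes of this group were scarce. Col28a1, a type VI relative known from peripheral nerve, fell from 3.12, 2.73 and 3.11 CPM to 2.14, 1.65 and 2.42 CPM (log2 change -0.53 ± 0.14, edgeR adjusted p = 0.01). Col25a1, a membrane-spanning collagen of neurons and muscle, rose from 1.30, 1.79 and 1.78 CPM to 2.78, 2.52 and 2.64 CPM (0.70 ± 0.17, adjusted p = 0.0048). Col23a1, also membrane-spanning, rose from 8, 15 and 13 counts to 20, 22 and 25 counts (1.10 ± 0.29, adjusted p = 0.00794). Col17a1, the membrane collagen of hemidesmosomes, had 21 to 35 counts in the 4OHT and 31 to 37 in the EtOH libraries and was not called (-0.11 ± 0.22, adjusted p = 0.70). The DESeq2 Wald test called none of Col28a1, Col25a1 and Col23a1 (adjusted p = 0.148, 0.0731 and 0.15). Without 1 pair, Col28a1 missed the threshold when lymphoma was left out (adjusted p = 0.0602) and Col23a1 when sarcoma was left out (adjusted p = 0.0619).

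**Figure D3:**
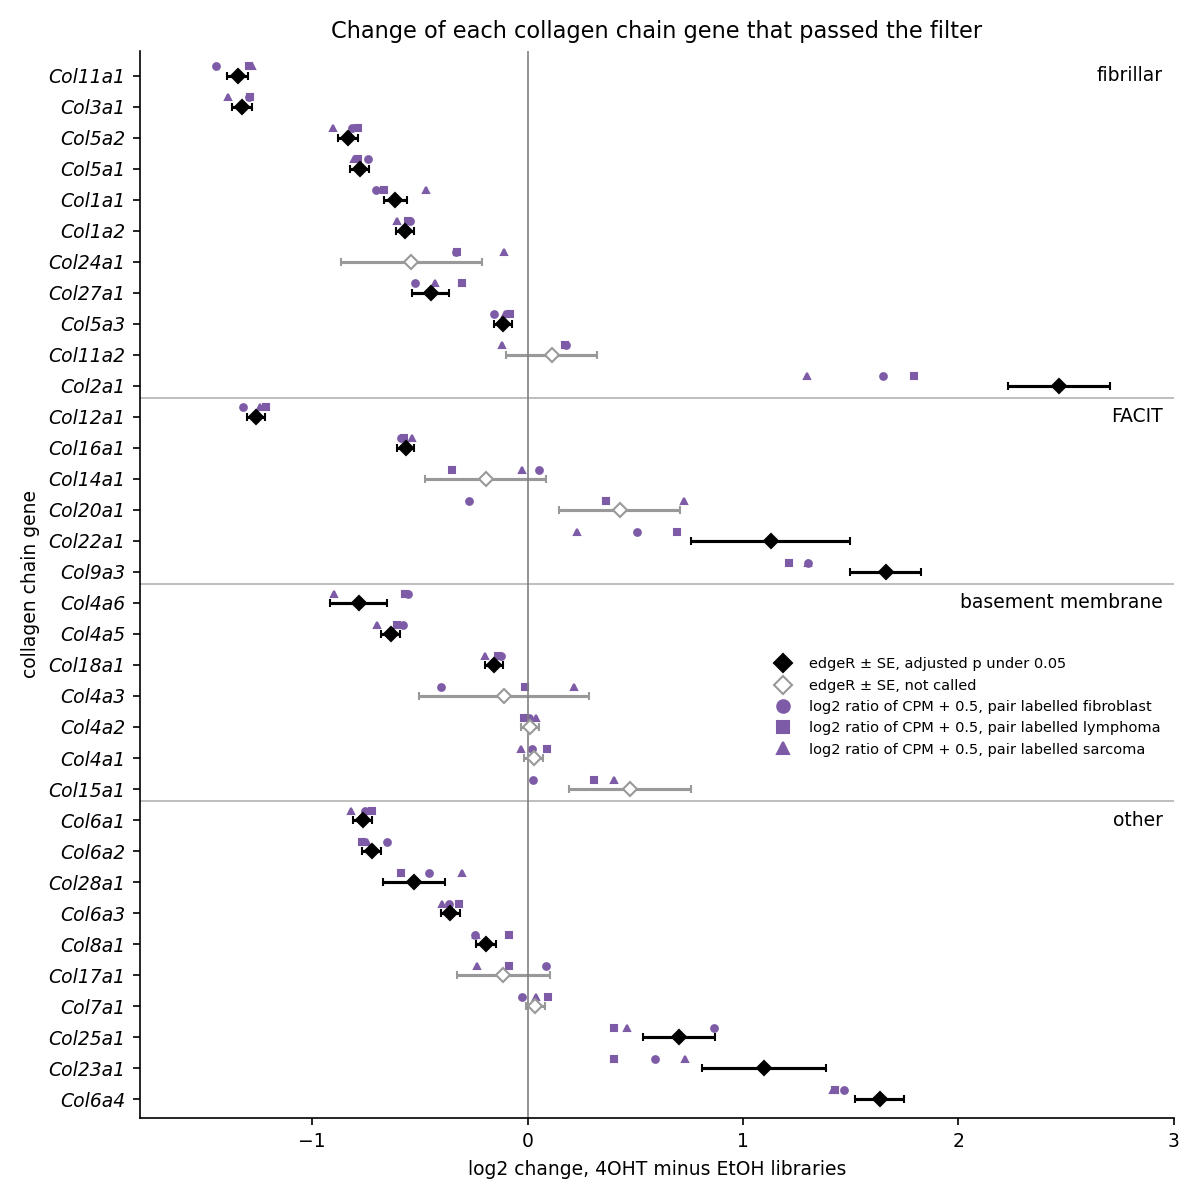
Log2 change (4OHT minus EtOH) of the 34 collagen chain genes that passed the filter, by class; diamonds with bars are edgeR estimates ± SE, filled where the adjusted p is under 0.05, and small purple symbols are the log2 ratios of CPM + 0.5 in the 3 labelled pairs. Col11a1, Col3a1 and Col12a1 lie furthest to the left, Col4a1, Col4a2 and Col7a1 lie at 0, and the genes that rose have wide bars and pair ratios drawn towards 0 by the pseudocount.

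Within single pairs, where 1 library stands on each side and no test is possible, a gene was counted when its CPM + 0.5 differed at least 2-fold at a mean of 5 CPM or more. Of the 19 members at that level in each pair, 3 were lower and none was higher, and they were Col3a1, Col11a1 and Col12a1 in all 3 pairs. The share of all genes counted lower was 0.59% in the pair labelled fibroblast, 0.69% in lymphoma and 0.691% in sarcoma, and the share counted higher was 2.77%, 2.79% and 2.82%. The CPM ratio of Col3a1 was 0.407 (95% counting interval 0.404 to 0.411) in the pair labelled fibroblast, 0.409 (0.405 to 0.413) in lymphoma and 0.381 (0.377 to 0.384) in sarcoma. For Col11a1 the ratios were 0.365 (0.35 to 0.381), 0.406 (0.388 to 0.425) and 0.411 (0.394 to 0.428). For Col12a1 they were 0.40 (0.386 to 0.414), 0.431 (0.416 to 0.446) and 0.422 (0.408 to 0.436). In each pair, that labelled as exposed for 6 h included, these 3 genes stood at less than 0.5 of their EtOH level. The intervals are Clopper-Pearson intervals and cover counting error only.

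Levels of different genes can be set side by side only per length, as TPM (transcript abundance per length and library, as deposited). The TPM of a gene is summed over its targets, and a read adds more TPM on a short target than on a long one. The orders below therefore depend on how reads were split between targets, which was not tested. In the EtOH libraries the order by mean TPM was Col1a2 at 717 ± 11.4 TPM (SD, n = 3), Col3a1 at 548 ± 19.9, Col6a3 at 272 ± 4.45, Col4a1 at 209 ± 9.95, Col6a1 at 208 ± 5.84 and Col1a1 at 180 ± 6.47. Col4a1 and Col6a1 did not differ there beyond their spread. In the 4OHT libraries Col1a2 was still first at 498 ± 34.4 TPM, followed by Col6a3 at 240 ± 17.5, Col3a1 at 224 ± 13.8 and Col4a1 at 217 ± 11.2, of which the last 3 overlapped within their spread. Col6a1 and Col1a1 followed at 125 ± 8.08 and 120 ± 10.8 TPM, also within their spread, and Col4a2 came next at 90.9 ± 5.91 TPM, within the spread of Col16a1 at 87.9 ± 12.2 TPM. In the EtOH libraries Col4a2 stood at 88.3 ± 3.30 TPM and Col16a1 at 123 ± 5.06 TPM. By counts Col16a1 was far lower there, at 403, 391 and 383 CPM against 1044, 1043 and 981 CPM for Col4a2. Col16a1 has 6 targets and Col4a2 has 1. Col6a3 and Col4a1 have 5 targets each, Col3a1 has 3 and Col1a2 has 2. The places of these genes in the TPM order are thus not a secure ranking of whole chains.

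Ratios between chains within a library need no scaling between libraries. Type I collagen protein is mostly a trimer with more Col1a1 than Col1a2 product, which an RNA ratio does not measure. By counts Col1a1 was also lower than Col1a2, at means of 1763 and 5048 CPM in the EtOH libraries. Col1a2 has 2 targets and Col1a1 has 1, so the size of a TPM ratio can depend on the split between targets. The TPM ratio of Col1a1 to Col1a2 was below 1 in every library, at 0.255, 0.259 and 0.238 in the EtOH and 0.225, 0.240 and 0.260 in the 4OHT libraries. This ratio did not separate the arms (exact permutation p = 0.7, n = 3 against 3). Ratios of partner chains also overlapped for Col4a1 to Col4a2 (2.38 ± 0.19 and 2.39 ± 0.04 in EtOH and 4OHT, SD, n = 3, exact p = 0.9) and for Col6a1 to Col6a2 (2.06 ± 0.13 and 2.0 ± 0.04, exact p = 0.4). The ratio of Col5a1 to Col5a2 was 0.733 ± 0.020 in EtOH and 0.759 ± 0.007 in 4OHT libraries (exact p = 0.2).

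For the other 2 ratios tested, 1 between types and 1 within type VI, the arms did not overlap. Col3a1 to Col1a1 was 3.02, 2.86 and 3.29 in the EtOH and 2.0, 1.86 and 1.74 in the 4OHT libraries. Col6a3 to Col6a1 was 1.31, 1.32 and 1.28 against 1.96, 1.92 and 1.87. Each gave an exact permutation p = 0.1 (n = 3 against 3; the smallest p possible, and 0.3 after Benjamini-Hochberg adjustment over the 6 ratios tested). The size of the change in Col6a3 to Col6a1 depends on the scale. In the edgeR fit of counts the log2 changes were -0.36 for Col6a3 and -0.76 for Col6a1. In limma on log2(TPM + 1) they were -0.18 and -0.73, so TPM sets the 2 chains further apart. A further 8 ratios, added after the values were seen, were computed without a test. Among these, Col5a3 to Col5a1 was 0.0988 ± 0.0029 (SD, n = 3) in the EtOH and 0.157 ± 0.002 in the 4OHT libraries. Col4a5 to Col4a1 went the other way, at 0.0285 ± 0.0011 and 0.0179 ± 0.0004.

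**Figure D4:**
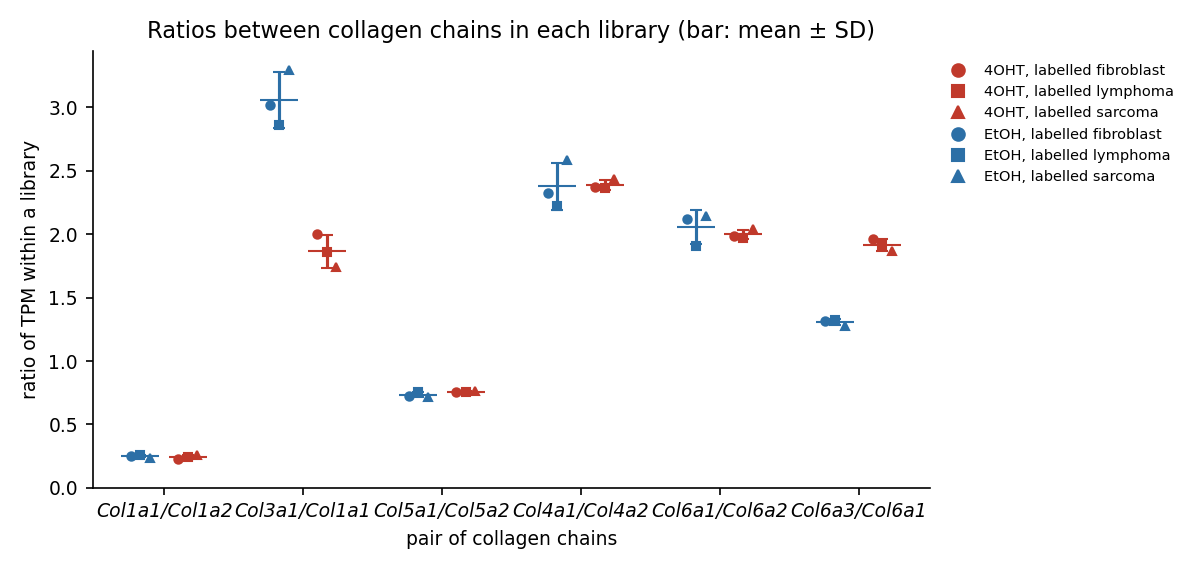
Ratio of the TPM of 2 collagen chains within each library, for the 6 ratios that were tested; symbols are libraries, horizontal bars are means with SD over 3 libraries, and the axis starts at 0. Col3a1/Col1a1 and Col6a3/Col6a1 separate the arms, whereas Col1a1/Col1a2, Col4a1/Col4a2 and Col6a1/Col6a2 overlap.

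Several members are neighbours in the genome (GRCm38). Col4a1 and Col4a2 start head to head on chromosome 8 with 22 overlapping bases, and neither was called. Col4a6 and Col4a5 start head to head 1308 bases apart on the X chromosome, and both fell. Col3a1 and Col5a2 end tail to tail 24614 bases apart on chromosome 1 and both fell, as did Col6a2 and Col6a1, which lie in the same direction 85161 bases apart on chromosome 10. The kit keeps strand, but it is unknown whether the counting made use of it. The overlap of Col4a1 and Col4a2 lies at the starts of both genes, and untranslated regions were mostly not counted. The main Col4a1 target, Col4a1-201, has 5010 bases, for a protein of 1669 residues. Whether any reads were shared between Col4a1 and Col4a2 was not tested.

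Most of the reads of a member fell on 1 or 2 annotated transcripts. In Col4a1 the coding transcript Col4a1-201 took 84.8%, 90.5% and 89.0% of the estimated counts in the EtOH and 80.6%, 86.0% and 83.8% in the 4OHT libraries. The transcript Col4a1-208, annotated as a target of nonsense-mediated decay, took 9.76%, 4.00% and 5.31% against 13.8%, 8.43% and 10.6%. Within each labelled pair the share of Col4a1-201 was lower and that of Col4a1-208 higher in the 4OHT library, while the arms overlapped in both shares. Neither was tested. In Col6a3, Col6a3-202 held 50.2% ± 0.77 (SD, n = 3) in the EtOH and 50.7% ± 1.37 in the 4OHT libraries. Col6a3-201 held 46.7% ± 2.43 in the EtOH and 43.5% ± 1.83 in the 4OHT libraries, and the rest lay on other targets of the gene. For Col7a1 and Col4a5 the main pair of transcripts has targets of equal length and equal share in each library, so their transcripts cannot be told apart here.

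Collagen production also depends on genes that modify, cleave, bind and degrade the chains. Of 21 genes for chain modification and folding in the endoplasmic reticulum, 20 passed the filter, of which 14 fell, 1 rose and 5 were not called, with a median log2 change of -0.24. For these lists too the background is the 24.6% of all genes called lower and the 25% called higher, and the lists were not tested against it. P4ha3, a subunit of a prolyl 4-hydroxylase, fell from 10.5, 11.0 and 11.6 CPM to 4.99, 5.26 and 5.42 CPM (log2 change -1.08 ± 0.08, edgeR adjusted p = 8.34e-07). Fkbp14, a prolyl isomerase, fell by 0.64, Plod2, the lysyl hydroxylase that acts on telopeptides, by 0.56, and P3h4, part of a lysyl hydroxylation complex, by 0.53 on the log2 scale. Plod3, which both hydroxylates and glycosylates collagen lysines, was the single gene that rose (0.27 ± 0.04, adjusted p = 0.000276).

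Of 15 genes for propeptide cleavage and crosslinking, 11 passed, of which 7 fell, 2 rose and 2 were not called, with a median log2 change of -0.20. The crosslinking oxidases diverged. Lox fell from 197, 173 and 173 CPM to 127, 123 and 128 CPM (log2 change -0.53 ± 0.05, edgeR adjusted p = 3.57e-06), and Loxl1 and Loxl2 fell by 0.44 and 0.27 on the log2 scale. Loxl3 rose from 182, 184 and 195 CPM to 280, 280 and 273 CPM (0.57 ± 0.05, adjusted p = 1.17e-06). Adamts2, which removes the amino-terminal propeptide of procollagens, fell by 0.34 on the log2 scale, and Pcolce2, an enhancer of carboxy-terminal cleavage, rose at a low level (0.796 to 1.97 CPM in the arm means).

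Among 10 receptors and uptake genes 8 passed, of which 4 fell, 2 rose and 2, the discoidin receptors Ddr1 and Ddr2, were not called. With 8 genes tested, 2 higher is the same share as the 25% of all genes. The collagen-binding integrin alpha subunits diverged as well. Itga2 rose from 1.09, 1.15 and 0.85 CPM to 7.33, 8.68 and 8.42 CPM (log2 change 3.0 ± 0.14, edgeR adjusted p = 1.01e-08), and Itga10 rose by 0.29 on the log2 scale. Itga1 fell by 0.91 and Itga11, the integrin of fibroblasts that binds fibrillar collagen, by 0.80. Mrc2, the uptake receptor for cleaved collagen, fell by 0.35 and Itgb1, the beta subunit shared by these integrins, by 0.20.

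Of 5 collagenases and gelatinases 4 passed, of which 2 rose and none fell. Mmp13, an interstitial collagenase, rose from 1.16, 1.01 and 0.797 CPM to 12.6, 12.7 and 9.97 CPM (log2 change 3.57 ± 0.12, edgeR adjusted p = 4.21e-10). Mmp9, a gelatinase, rose from 2.98, 3.34 and 2.60 CPM to 6.68, 7.03 and 5.78 CPM (1.13 ± 0.11, adjusted p = 5.11e-06). The far more abundant Mmp2 and Mmp14 were not called, at 402 and 260 CPM in the 4OHT and 399 and 244 CPM in the EtOH libraries.

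Of 21 transcription regulators with a known role at collagen genes 17 passed, of which 7 rose, 5 fell and 5 were not called, with a median log2 change of 0.14. The 5 of 17 that fell are near the 24.6% of all genes called lower. Those that rose most were Smad7, an inhibitor of TGF-beta signalling, at a log2 change of 0.65, Zeb2 at 0.62, Rfx5, known as a repressor of Col1a2, at 0.58, and Sox5, a regulator of cartilage genes, at 0.49. Those that fell most were Scx, a tendon factor that acts on Col1a1, and Creb3l1, an activator of Col1a1 in bone, both at -0.76, then Sp3 at -0.42 and Smad3 at -0.18. All of these passed edgeR's adjusted threshold of 0.05, and the list holds both activators and repressors, so its median has no single direction to be read from it.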

How the data were processed

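Stranded total RNA libraries depleted of ribosomal RNA were quantified by the authors with kallisto (0.43.0, as the submitters' processing notes name it) on GRCm38. The deposited files hold estimated counts and TPM per transcript, and the strand setting and transcript set are not given in the sources used here. Of 76055 targets, 75049 matched GENCODE M21 by transcript identifier, and the others (0.393% to 0.41% of counts) were left out. Of the protein-coding targets 94.2% had the coding length, so untranslated regions were mostly not counted.

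Estimated counts were summed per gene and rounded to whole numbers. The 3 labels served as pairs in edgeR 4.0.16 (quasi-likelihood, TMM, filterByExpr by arm, label as block, 2 residual and 9.23 prior degrees of freedom, two-sided, Benjamini-Hochberg adjusted p under 0.05). The pairing comes from the labels; deviations of same-label libraries from their arm had correlations of 0.0324, 0.139 and 0.141. An SE is the absolute log2 change divided by the square root of F. Alternatives used DESeq2 1.42.0, limma 3.58.1 and R 4.3.3. The fit was tested on simulated counts. Python 3.11.15, pandas 2.3.3, numpy 2.4.6, scipy 1.17.1 and matplotlib 3.10.9 were used.

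The members, classes and gene lists were chosen with earlier results of these data known. Every member that passed the filter is named, members with at least 5 CPM and called members with at least 1 CPM are given in every library, and each other list by its called genes with the largest change, up to 4 a direction. Marker lists not described in the report gave no called gene: leukocyte (Ptprc, at most 0.506 CPM), osteoblast (at most 0.945 CPM in sum), keratinocyte (at most 1.25 CPM), skeletal muscle (at most 0.864 CPM) and smooth muscle (120 to 142 CPM).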

Additional observations from a re-analysis of the deposited data

Results flagged for a closer look

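Col4a1 was not called over all libraries, but its labelled pairs pointed in opposite directions. The CPM ratio of the 4OHT to the EtOH library was 1.02 (95% counting interval 1.00 to 1.03) in the pair labelled fibroblast, 1.06 (1.05 to 1.08) in the pair labelled lymphoma and 0.981 (0.969 to 0.992) in the pair labelled sarcoma. The intervals cover counting error only, each pair holds 1 library per arm, and the difference between pairs was not tested.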

How the results depend on the processing

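Of the 24 calls among the members, 15 were kept under all 11 other fits, including 11 of the 16 at 5 CPM or more; the others (Col5a3, Col6a3, Col8a1, Col18a1, Col22a1, Col23a1, Col25a1, Col27a1 and Col28a1) were lost in at least 1 fit, and the cause was not tested. The fit without the replicate block (no pairing by label) changed no member's call and gave 6 higher and 18 lower. Members called lower numbered 16 in the DESeq2 Wald test and 12 in each limma fit of TPM. Each limma fit called 4 members higher, and 6 fibrillar members lower against 8 in the main fit. The DESeq2 Wald test called 3 members higher, with 1 in FACIT and 1 among the others, 1 receptor higher, 3 regulators lower, and 2541 genes higher and 2488 lower in all, against 3981 and 3920. Limma on log2(TPM + 1) and log2(TPM + 0.1) called 1 FACIT gene and 1 receptor higher, 2 and 2 of the other members lower, 5 and 5 folding genes, 2 and 3 crosslinking genes and 3 and 3 regulators lower, and 2352 and 2401 genes higher against 1552 and 1589 lower in all, so that 60.2% of its calls were higher against 50.4%. Median log2 changes with TPM + 1 were -0.055 for FACIT, where the sign turned, -0.049 for basement membrane, -0.066 for the others and -0.11 for all. In the edgeR fit, medians over members at 5 CPM or more were -0.70 for fibrillar, -0.91 for FACIT, turned in sign, -0.36 for the others and -0.57 for all. Leaving out each labelled pair in turn gave 1 to 2 FACIT genes and 1 to 2 receptors called higher, and medians of -0.69 to -0.58 for fibrillar, -0.086 to 0.20 for FACIT, -0.14 to -0.01 for basement membrane and -0.32 to -0.20 for all members. The basement membrane sum turned in sign, at a log2 ratio of 0.021 in TPM and -0.019 to 0.0092 with a pair left out, an alternative chosen after seeing the data, as for the chain ratios: the change in Col1a1/Col1a2 was 0.905 to 1.00 and that in Col4a1/Col4a2 0.978 to 1.04, or 0.966 over protein-coding targets. Single log2 changes that turned in sign were those of genes not called: Col4a1 (-0.027 over protein-coding targets, -0.0032 to 0.055 with a pair left out), Col4a2 (-0.016 with no filter, -0.012 to 0.023), Col20a1 (-0.10 and -0.42 in limma), Col14a1 (-0.39 to 0.029), Col17a1 (-0.26 to 0.0025) and Col4a3 (-0.14 to 0.25). Of 57 ratios of members in single pairs, 49 moved by less than their counting interval without TMM scaling, 8 moved by more and none turned. Depth limits the scarce members: a count of 0 allows up to 3 counts, which is 0.0797 to 0.113 CPM.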
